A study of Mus musculus with 14 samples.

Results

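The genes described here encode mTOR, its complexes and the proteins that report nutrients, growth factors and stress to them. They are 44 mouse genes chosen by name for their role in the pathway. All 44 were among the 18232 genes tested, of 54446 gene identifiers in the files. Total RNA from E14 mouse embryonic stem (ES) cells, grown in serum and LIF without feeders, was sequenced from wild-type (WT) cells and from Tet1/2 double-knockout (DKO) cells. The DKO cells came from 1 clonal line in which Cas9 was used to delete Tet1 and Tet2, which encode 5-methylcytosine oxidases. The study describes the entire genes as deleted, and its guides targeted exons within each gene. The mTOR inhibitor INK128 (mTORi) puts ES cells into a dormant, diapause-like state. WT cells were collected untreated (0 h) and after 24, 72 and 144 h of inhibitor, and DKO cells at 0, 24 and 72 h. Each of the 7 groups held 2 replicates, giving 14 libraries.

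mTOR is a kinase that works in a pair of complexes. mTORC1, built around Raptor (Rptor), promotes protein synthesis and growth when amino acids and growth factors are plentiful, and mTORC2, built around Rictor, phosphorylates AKT and SGK kinases. Amino acids act through the GATOR1 and GATOR2 complexes and the Rag GTPases, which the Ragulator scaffold holds on the lysosome, and the Sestrins and Ddit4 (REDD1) restrain mTORC1 under stress. Growth factors act through PI3K, PDK1 and AKT on the TSC complex, which keeps the GTPase Rheb inactive, and S6 kinases are substrates of mTORC1 that in turn mark the translation inhibitor Pdcd4 for degradation.

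The results turn on 5 genes whose promoter windows are shown here: Ddit4 and Lamtor4, which were lower at every WT time, Pdcd4, which was higher at 24 h, and the paralogues Rraga and Rragb, whose ratio shifted. RefSeq windows from 250 bases before to 50 bases after a RefSeq gene start were found for 38 of the 44 genes in build GRCm38.p6. That start could lie away from the start of the gene as measured. The distance was 6414 bases for Prr5, 1381 for Akt1s1, 1234 for Sesn3, 639 for Sesn1, 606 for Pik3ca and 410 for Pik3cb. Both strands were searched for CACGTG, the E-box core that TFEB-family and MYC-family factors bind, for TGATGNAAN, the composite element that ATF4 binds, and for GTAAACA, the core that FOXO factors bind. These motifs do not overlap each other in the windows printed. Matches are in capitals.

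Ddit4 (chr10:59951721-59952020, minus strand): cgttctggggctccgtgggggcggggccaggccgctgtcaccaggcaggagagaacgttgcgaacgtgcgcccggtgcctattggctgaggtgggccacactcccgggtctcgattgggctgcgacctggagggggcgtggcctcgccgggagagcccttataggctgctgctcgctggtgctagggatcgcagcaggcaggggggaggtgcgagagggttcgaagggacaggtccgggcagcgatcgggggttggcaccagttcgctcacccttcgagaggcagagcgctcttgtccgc

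Pdcd4 (chr19:53891981-53892280, plus strand): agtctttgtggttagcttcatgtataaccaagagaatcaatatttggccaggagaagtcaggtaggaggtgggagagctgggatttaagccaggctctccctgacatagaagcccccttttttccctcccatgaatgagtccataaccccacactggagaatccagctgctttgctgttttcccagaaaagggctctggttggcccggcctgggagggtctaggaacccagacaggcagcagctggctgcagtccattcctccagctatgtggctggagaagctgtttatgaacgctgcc

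Lamtor4 (chr5:138255232-138255531, plus strand): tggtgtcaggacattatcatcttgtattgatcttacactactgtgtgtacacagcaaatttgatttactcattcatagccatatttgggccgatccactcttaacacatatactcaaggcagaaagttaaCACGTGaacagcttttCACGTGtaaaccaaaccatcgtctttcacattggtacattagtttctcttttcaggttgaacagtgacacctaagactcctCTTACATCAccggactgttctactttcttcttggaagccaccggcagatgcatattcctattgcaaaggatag

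Rraga (chr4:86575423-86575722, plus strand): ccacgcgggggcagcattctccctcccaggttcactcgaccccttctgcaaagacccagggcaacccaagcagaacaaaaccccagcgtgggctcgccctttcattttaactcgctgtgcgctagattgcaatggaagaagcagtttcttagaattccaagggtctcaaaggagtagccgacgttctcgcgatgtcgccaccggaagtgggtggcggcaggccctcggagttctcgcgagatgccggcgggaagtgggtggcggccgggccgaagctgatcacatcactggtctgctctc

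Rragb (chrX:153139708-153140007, plus strand): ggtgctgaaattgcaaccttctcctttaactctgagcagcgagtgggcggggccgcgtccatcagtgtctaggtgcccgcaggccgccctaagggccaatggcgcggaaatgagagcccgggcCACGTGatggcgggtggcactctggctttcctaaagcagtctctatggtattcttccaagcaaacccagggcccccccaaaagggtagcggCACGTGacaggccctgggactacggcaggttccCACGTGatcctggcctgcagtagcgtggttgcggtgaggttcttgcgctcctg

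CACGTG was found in 5 of the 38 windows, those of Lamtor1, Lamtor4, Rheb, Rragb and Tbc1d7, and in 7.68% of all 20482 windows of this length. Lamtor4 held it at positions -120 and -104 from the start, and Rragb at -127, -36 and -3. TGATGNAAN was present in 3.75% of all windows and in 1 of the 38, that of Lamtor4, at -23 and on the reverse strand. GTAAACA was present in 3.14% of all windows and in 3 of the 38, Akt1, Mapkap1 and Sesn1. The Sesn1 window is the one set 639 bases from the start of the gene as measured. The windows of Ddit4, Pdcd4 and Rraga held none of these letters.

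Levels are given as spike-in normalized TPM, a measure of transcript share that corrects for length, in which 1 factor per library scales the deposited TPM to the added ERCC RNA, and as plain TPM, the deposited values, in which each library sums to 1000000. At which step the ERCC RNA was added is not given in the sources used here, so scaling per cell is not assumed. In a bulk sample, fewer cells of one type and less of an RNA in each cell cannot be told apart. Relative to WT 0 h, the factors were 0.679 and 0.878 at 24 h, 0.783 and 0.706 at 72 h, then 0.507 and 0.474 at 144 h in WT, and 1.33 and 1.13 at 0 h, 1.06 and 0.643 at 24 h, then 1.20 and 0.818 at 72 h in DKO. The first DKO replicate had the larger factor at every time, by 1.65-fold at 24 h. Tet2 was 129 to 210.4 spike-in normalized TPM in the WT libraries (median 179) and 27.1 to 55.0 in the DKO libraries (median 44.1), without overlap, whereas Tet1 overlapped (343.9 to 517 and 238 to 602). A gene-level value does not separate reads inside the targeted stretch from those outside it. The study screened its clones by PCR and reports that western blots for TET1 and TET2 protein bore out the knockout. The summed level of 6 ES cell markers was 5274 and 5179 in WT at 0 h and 2884 and 2626 at 144 h. It ran from 3322 to 6683 in DKO. At 144 h in WT 4 of the 6 were lower, against 50.5% of all genes. Their median log2 change was -0.91, beside -0.83 over all genes. On plain TPM at 144 h 1 of the 6 was higher (Sox2, 0.64) and 1 lower (Nanog), against 15.6% and 11.7% of all genes. The median was 0.12 there. Of 6 fibroblast markers, 5 averaged under 1 TPM. The other, Thy1, was lower at 24 h (-1.89) and 144 h (-1.23) in WT but did not pass at 72 h (-1.17). In DKO it was lower at 24 h (-2.05) and 72 h (-1.47). On plain TPM its 144 h change in WT was -0.31 and did not pass. The 6 trophectoderm markers summed to 81.5 and 124 at 0 h and to 28.8 and 25.2 at 144 h in WT. Gata3, Krt8 and Tfap2c were lower there (3 of 5 tested), against 50.5% of all genes. On plain TPM 1 was higher and 1 lower, against 15.6% and 11.7%. Of 3 neuroectoderm markers tested, Nes was lower at every WT time, where 8.73%, 7.6% and 50.5% of all genes were. Neither of the others passed in WT without the replicate block. Sox1 (0.73 at 72 h) was higher there with the block and on plain TPM (0.95), and Pax6 was lower at 24 h with the block. In DKO Nes and Sox1 were lower at 24 h, against 18.7% of all genes, and none was called at 72 h. The part of these markers in the members' changes was not tested. The 6 markers of primitive endoderm summed to 12.9 to 338 TPM and differed between replicates of 1 group by over 3-fold in places.

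As a group the 44 genes stayed close to the all-gene median, with calls for single genes on either side of it. At 144 h in WT, 26 of them were lower than at 0 h and 0 were higher on the spike-in scale, where 50.5% of all tested genes were lower and 0.461% higher (limma, Benjamini-Hochberg adjusted p under 0.05). Their median log2 change was -0.81, beside -0.83 over all genes, and 23 of the 44 lay above the all-gene median. At 24 h in WT the median was -0.34 (all genes -0.33), with Pdcd4 higher, against 1.25% of all genes, and Sgk1, Lamtor4 and Ddit4 lower, against 8.73%. At 72 h in WT the median was -0.26 (all genes -0.33), and Sec13, Akt1, Lamtor4, Ddit4 and Sesn2 were lower, against 7.6% of all genes, with 0 higher, against 0.697%. The member medians therefore lay within 0.1 of the all-gene median at each of these times.

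In DKO, 11 genes were lower at 24 h, against 18.7% of all genes, and 0 were higher, against 0.505%. They were Sec13, Seh1l, Sgk1, Rraga, Lamtor1, Lamtor2, Lamtor3, Lamtor4, Lamtor5, Ddit4 and Sesn2. At 72 h in DKO only Ddit4 and Sesn2 were lower, against 2.95% of all genes, and 0 were higher, against 0.713%. Ddit4 was the 1 member lower in all 5 comparisons with 0 h in the fit with the filter on low values and no replicate block. Replicates carrying the same number within a genotype were processed in parallel, and with the replicate number as a block the counts of lower genes were 10, 12 and 35 in WT at 24, 72 and 144 h, where 25.7%, 25.4% and 66.3% of all genes were lower in that fit. In DKO they were 17 at 24 h, against 38.1% of all genes, and 7 at 72 h, against 13.2%. Pdcd4 was the 1 higher gene in the blocked fit at 24 and 72 h in both genotypes, against 4.48% and 2.85% of all genes in WT and 1.95% and 5.34% in DKO, and 0 members were higher at 144 h, against 1.05%. Lamtor4, Sec13, Seh1l, Sesn2 and Sgk1 were also lower in all 5 comparisons in the blocked fit. How many of all genes were lower in all 5 is not given here for either fit.

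The counts rest on few libraries. How many of all genes kept a call in every fit without 1 library, or in none, is not given here. Leaving out 1 library at a time left 12 to 15 lower genes at 144 h in WT, 1 to 3 at 72 h and 0 to 2 at 24 h, while the share of all genes lower ran from 21.5% to 34.9%, 0.318% to 2.44% and 1.46% to 5.89%. The 10 genes lower at 144 h in every such fit were Sec13, Seh1l, Sgk1, Prr5, Rraga, Lamtor1, Lamtor4, Lamtor5, Ddit4 and Sesn2, and the 9 lower in none were Nprl2, Mios, Lamtor2, Lamtor3, Rps6kb1, Rps6kb2, Rheb, Mapkap1 and Rptor. In DKO at 24 h the lower calls depended on the library left out. They were most without replicate 1 at 24 h and fewest without replicate 1 at 0 h, for members and for all genes. The DKO calls at 72 h depended on it too. Without the filter on low values, which tested 38890 genes, Pdcd4 was not called at 24 h in WT, and the counts of lower genes were 0, 1 and 18 in WT at 24, 72 and 144 h (2.34%, 1.64% and 18.2% of all genes) and 4 and 0 in DKO (5.93% and 1.07%).

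Relative to other transcripts, members moved in both directions. On plain TPM, 13 genes were higher and 6 lower at 144 h in WT, where 15.6% of all genes were higher and 11.7% lower. The corresponding counts were 10 and 5 at 24 h (15.8% and 14.1% of all genes) and 12 and 8 at 72 h (12.6% and 11.4%), and in DKO 7 and 10 at 24 h (11.6% and 13.3%) and 17 and 5 at 72 h (17.2% and 9.06%). Mtor, Rictor, Deptor, Tsc2, Wdr59 and Pdcd4 were higher in all 5 plain TPM comparisons, and Ddit4, Lamtor4 and Sec13 were lower in all 5. How many of all genes met either rule is not given here. Rptor alone was lower on the spike-in scale and higher on plain TPM at 144 h, and its lower call was lost in every leave-out.

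**Figure D1:**
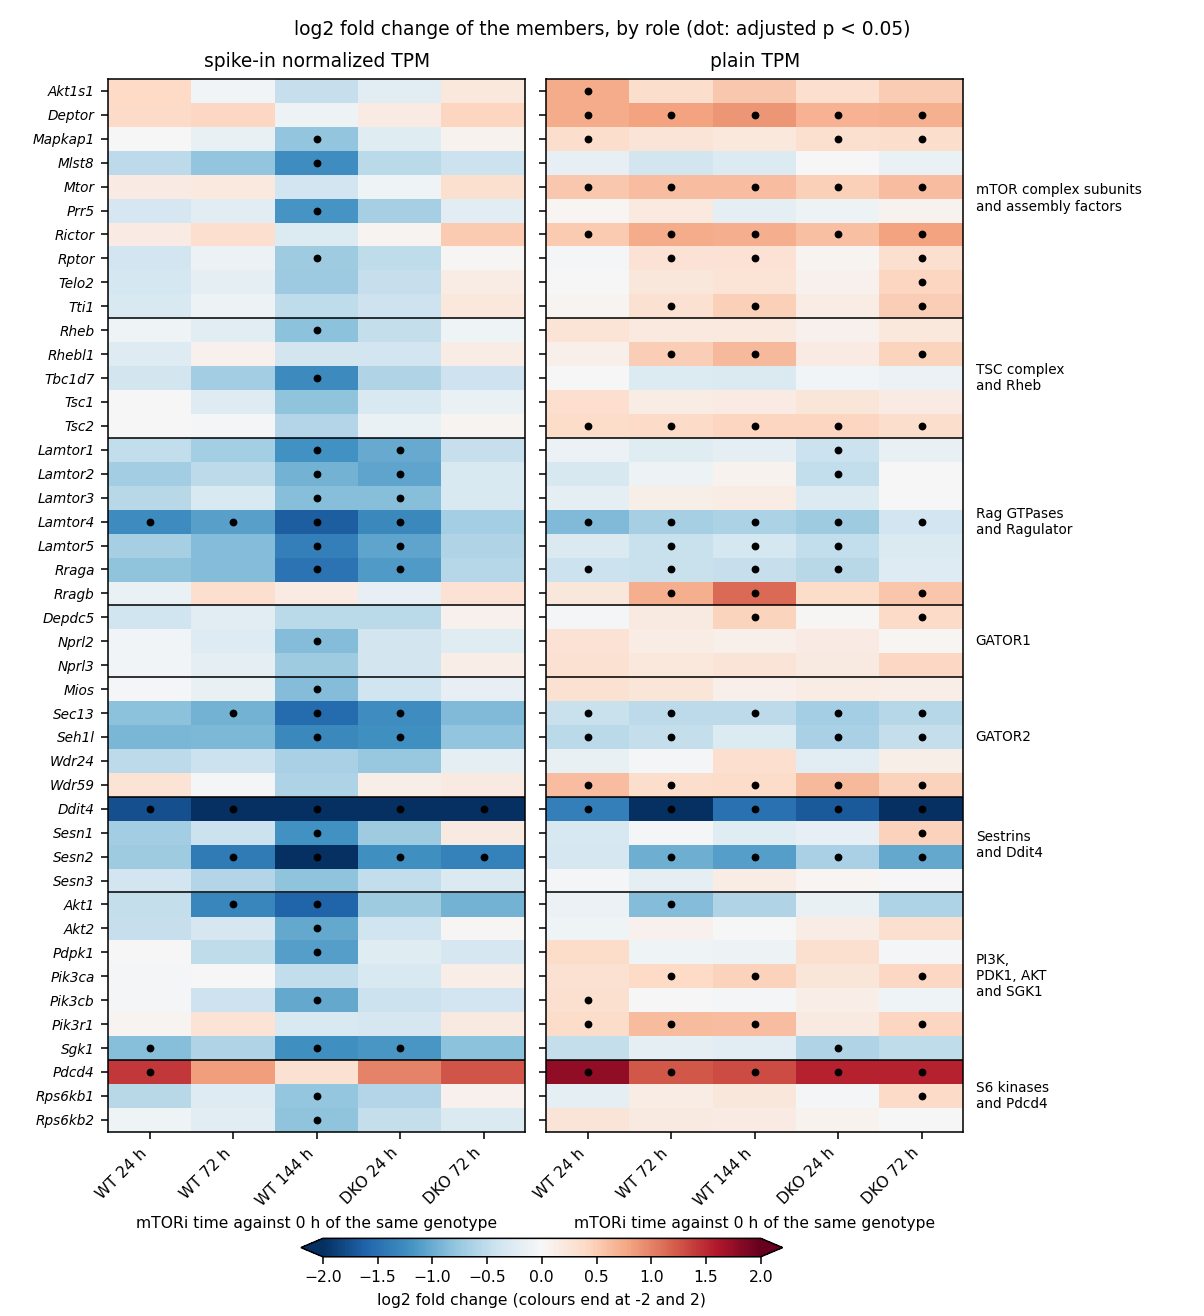
Log2 change from 0 h of the 44 genes (rows, ordered by role) in the 5 time comparisons (columns), on spike-in normalized TPM (left) and plain TPM (right), with a dot where adjusted p was under 0.05 in the fit without a replicate block. On the left 26 genes carry a dot for lower at 144 h in WT, and on the right 13 carry one for higher and 6 for lower.

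The stress-responsive inhibitors of mTORC1 held the members with the largest decreases. Their median log2 change at 144 h in WT was -1.67, with 3 of 4 genes lower (4 with the block), beside an all-gene median of -0.83 and 50.5% of all genes lower (66.3% with the block). The counts of the other role groups at this time stand against the same shares. Ddit4, on mm10 chromosome 10 at 59949669 to 59951834, encodes REDD1, which acts on mTORC1 through the TSC complex. Its spike-in normalized level was 37.8 and 88.1 TPM in the WT libraries at 0 h, 10.6 and 24.9 at 24 h, 6.67 and 4.93 at 72 h, then 9.64 and 9.10 at 144 h. In DKO it was 89.7 and 29.5 at 0 h, 13.4 and 6.89 at 24 h, then 6.91 and 4.71 at 72 h. Every treated library lay below every 0 h library of its genotype, although the 0 h replicates themselves were far apart. The log2 changes in WT were -1.76 ± 0.49 (SE, adjusted p = 0.0270), -3.12 ± 0.49 (0.00111) and -2.50 ± 0.49 (0.000814) at 24, 72 and 144 h. The DKO changes were -2.30 ± 0.49 (adjusted p = 0.00385) at 24 h and -2.97 ± 0.49 (0.00183) at 72 h. Ddit4 also fell on plain TPM, by 1.37, 2.61 and 1.50 in WT and by 1.69 and 2.49 in DKO on the log2 scale. Its 24 h call in WT was lost without replicate 2 at 0 h (-1.16) or replicate 1 at 24 h (-1.18), its 24 h call in DKO without replicate 1 at 0 h (-1.52) and its 72 h call in DKO without replicate 2 at 72 h (-2.73). Without the filter on low values, Ddit4 passed at 72 and 144 h in WT but not at 24 h (adjusted p = 0.179), nor at 24 h (0.0625) or 72 h (0.0545) in DKO.

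Sesn2, on mm10 chromosome 4 at 132492032 to 132510501, encodes a leucine-binding Sestrin that holds GATOR2 in check. Its level was 122 and 151 spike-in normalized TPM in WT at 0 h, 67.5 and 100.4 at 24 h, 53.0 and 47.9 at 72 h, then 32.6 and 28.4 at 144 h. The DKO libraries gave 200.1 and 149 at 0 h, 100.5 and 53.2 at 24 h, then 83.0 and 54.5 at 72 h. No treated library reached a 0 h library of its genotype. The log2 change was -0.71 ± 0.32 at 24 h in WT, which missed the threshold (adjusted p = 0.163, or 0.0220 with the replicate block), and -1.41 ± 0.32 (0.0129) at 72 h and -2.12 ± 0.32 (0.000138) at 144 h. The DKO changes were -1.23 ± 0.32 (adjusted p = 0.0131) at 24 h and -1.35 ± 0.32 (0.0267) at 72 h. Sesn2 was also lower on plain TPM at 72 h (-0.98) and 144 h (-1.10) in WT and at 24 h (-0.66) and 72 h (-1.03) in DKO. The 144 h call held in every leave-out, while 3 of 4 leave-outs ended the WT 72 h call (-1.48 to -1.26), 2 of 4 the DKO 24 h call and 3 of 4 the DKO 72 h call (-1.56 to -1.05). These 3 calls of Sesn2 were also lost without the filter on low values.

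Sesn1 and Sesn3 encode the other two Sestrins. Sesn1 was 25.6 and 25.2 spike-in normalized TPM in WT at 0 h, 12.6 and 18.5 at 24 h, 19.8 and 17.4 at 72 h, then 9.66 and 11.2 at 144 h. In DKO it was 36.6 and 36.8 at 0 h, 29.3 and 16.4 at 24 h, then 47.4 and 36.5 at 72 h, so the 72 h libraries spanned the 0 h level. On plain TPM both DKO libraries at 72 h lay above both at 0 h. Sesn1 was lower at 144 h in WT (-1.21 ± 0.32, adjusted p = 0.00562), a call lost without replicate 1 at 144 h (-1.11), and its plain TPM change was -0.24 there. In the blocked fit Sesn1 was also lower at 24 h in WT (adjusted p = 0.0349) and in DKO (0.0235). Sesn3 had log2 changes from -0.81 to -0.30, which passed no test without the block, and with the block it was lower at 144 h in WT (adjusted p = 0.00706).

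Levels of Ddit4, Akt1, Sesn3 and Pdpk1, the last 3 chosen after their values were seen, differed between the 0 h replicates on the same side as the endoderm markers. The summed level of 6 primitive endoderm markers was 26.5 and 89.5 spike-in normalized TPM in WT at 0 h, 144 and 338 at 24 h, 22.5 and 57.5 at 72 h, then 14.8 and 12.9 at 144 h. In DKO the sum was 114 and 31.7 at 0 h, 158 and 40.4 at 24 h, then 86.6 and 40.6 at 72 h. Gata4, Gata6 and Sox17 rose at 24 h in WT, so 3 of the 6 markers passed the test there, against 1.25% of all genes. Gata4, Sox17 and Sox7 fell at 144 h, against 50.5% of all genes. With the block 6 of 6 passed at each time, against 4.48% and 66.3%. The higher replicate exceeded the lower at 0 h in WT and DKO by 2.33-fold and 3.04-fold for Ddit4, 1.86-fold and 1.79-fold for Akt1, 1.66-fold and 1.97-fold for Sesn3 and 1.34-fold and 1.32-fold for Pdpk1. In the 6 groups other than WT 144 h, the replicate with more endoderm marker RNA also had more Sesn3 and Pdpk1 in 6 and more Ddit4 and Akt1 in 5. This was not particular to the 4 genes, which were named for a wide spread on the endoderm side at 0 h. Tbc1d7 had a like spread at 0 h (1.34-fold in WT and 1.3-fold in DKO), but not on that side in WT. Over all 44 genes, 29 lay on the endoderm side in 5 or 6 of the 6 groups, as did 59.7% of all tested genes, and the first DKO replicate had the larger spike-in factor at every time. At 0 h 29 of the 44 lay on that side in WT and 41 in DKO, beside 67.1% and 77.6% of all tested genes. On plain TPM 11 of the 44 did so in 5 or 6 groups, beside 31.0% of all tested genes, with Sesn3 and Pdpk1 in 6 and Ddit4 and Akt1 in 4. The part of these markers in the changes of the 4 genes was not tested.

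**Figure D2:**
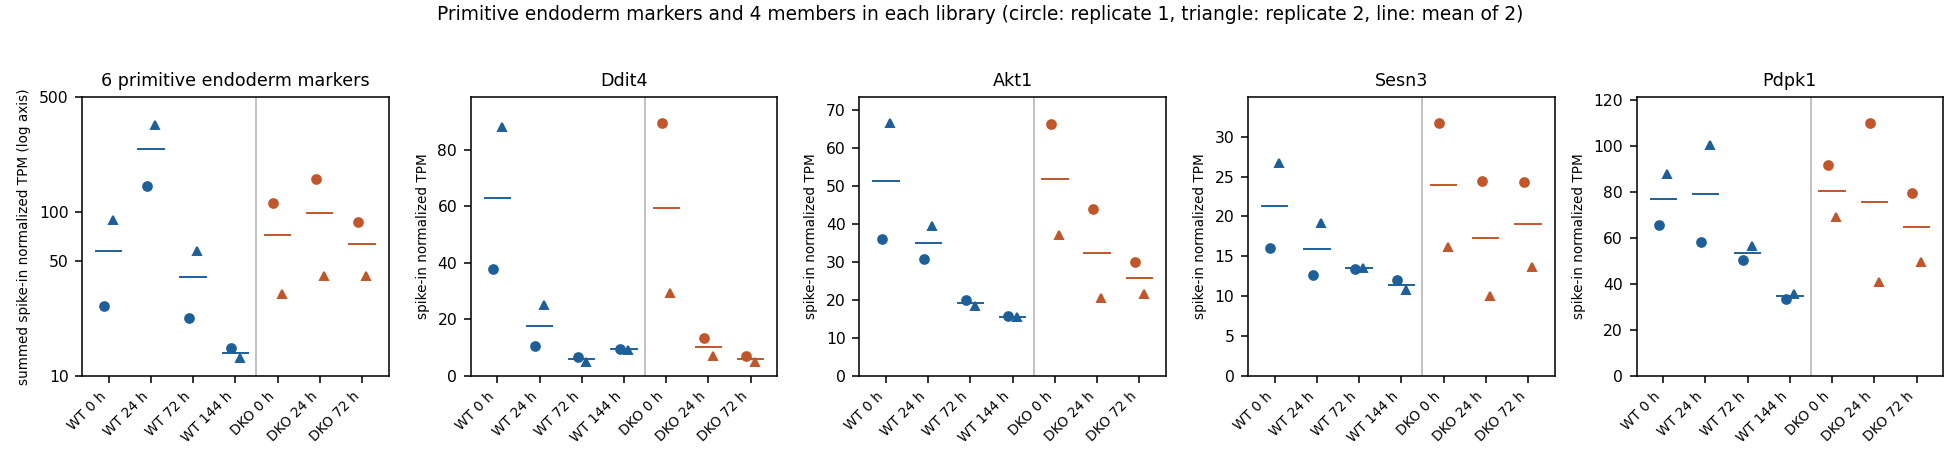
Spike-in normalized TPM per library of the summed primitive endoderm markers, Ddit4, Akt1, Sesn3 and Pdpk1, by group, with 1 point per library, a line at each group mean and a log axis for the markers only. At 0 h the second WT and the first DKO library are the higher ones in every panel (89.5 and 114 TPM of markers, 88.1 and 89.7 TPM of Ddit4).

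GATOR1, which switches off the Rag GTPases when amino acids are scarce, comprises Depdc5, Nprl2 and Nprl3. Of the 3, only Nprl2 fell in the fit without the block, at 144 h in WT (-0.87 ± 0.31, adjusted p = 0.0272), where the median of the 3 was -0.71, and its plain TPM change there was 0.10. Depdc5 was 42.9 and 47.4 spike-in normalized TPM in WT at 0 h and 32.4 and 29.0 at 144 h (31.2 and 37.4 at 24 h, 39.9 and 36.9 at 72 h). In DKO, Depdc5 was 72.4 and 59.8 at 0 h, 64.3 and 31.6 at 24 h, then 89.7 and 55.0 at 72 h, with replicate 1 above replicate 2 each time. Nprl3 was 27.6 and 25.8 in WT at 0 h, 22.7 and 29.3 at 24 h, 23.1 in both libraries at 72 h, then 16.2 and 15.6 at 144 h, and 46.7 and 33.5, 44.3 and 21.0, and 59.2 and 31.8 in DKO at 0, 24 and 72 h. Neither gene passed the test over time on the spike-in scale without the block, and with it both were lower at 144 h in WT (adjusted p = 0.0357 for Depdc5 and 0.0082 for Nprl3). On plain TPM Depdc5 rose by 0.45 at 144 h in WT and by 0.39 at 72 h in DKO. The strand setting of the counting is not given in the sources used here, and Nprl3 overlaps Mpg on the opposite strand (mean 22.7 TPM beside 30.0 for Nprl3).

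In GATOR2, the complex that opposes GATOR1, 3 of 5 genes were lower at 144 h in WT, with a median of -0.87 (all genes -0.83 and 50.5% lower), and 5 of 5 with the replicate block. Sec13 and Seh1l, which also serve in the nuclear pore and, for Sec13, in secretory vesicle coats, were the larger decreases. Sec13 was 250.2 and 270.5 spike-in normalized TPM in WT at 0 h and 94.6 and 83.2 at 144 h. It fell by 0.95 ± 0.28 at 72 h (adjusted p = 0.0414), a call lost in each of the 4 leave-outs (-1.08 to -0.81) and without the filter, and by 1.54 ± 0.28 at 144 h (0.000478) in WT, and by 1.25 ± 0.28 at 24 h in DKO (0.00524). In the blocked fit Sec13 was also lower at 24 h in WT (adjusted p = 0.00711) and at 72 h in DKO (0.00817). Seh1l was 154 and 189 at 0 h, 74.3 and 109.9 at 24 h, 94.0 and 87.7 at 72 h, then 66.5 and 71.6 at 144 h in WT, and 263 and 218, 146 and 71.4, and 167 and 114 in DKO at 0, 24 and 72 h. Each treated library of Seh1l lay below the 0 h libraries of its genotype, and the tests passed at 144 h in WT (-1.29 ± 0.32, adjusted p = 0.00349) and at 24 h in DKO (-1.22 ± 0.32, 0.0124) but not at 24 h in WT (-0.91 ± 0.32, 0.0736). With the block Seh1l passed at the remaining times as well, with adjusted p of 0.00508 and 0.0060 at 24 and 72 h in WT and 0.0191 at 72 h in DKO. Mios fell at 144 h in WT (-0.87). Wdr59 had a log2 change of 0.27 at 24 h and -0.61 at 144 h in WT without passing the test, though at 144 h the blocked fit called it lower (adjusted p = 0.0205), and on plain TPM it rose in all 5 comparisons, by 0.36 to 0.64. Wdr24 was likewise lower only in the blocked fit, at 144 h in WT (adjusted p = 0.0176) and at 24 h in DKO (0.0124).

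The Rag GTPases and the Ragulator showed the second lowest median of the 8 role groups at 144 h in WT (-1.21, all genes -0.83), and 6 of its 7 genes were lower, all except Rragb, where 50.5% of all genes were. The same 6 were lower at 24 h in DKO, against 18.7% of all genes. With the block 4 of the 7 were lower at 24 h and 4 at 72 h in WT, against 25.7% and 25.4% of all genes, and 1 at 72 h in DKO, against 13.2%. Lamtor4, a Ragulator subunit on mm10 chromosome 5 at 138255482 to 138259398, was 71.2 and 77.2 spike-in normalized TPM in WT at 0 h, 27.2 and 33.9 at 24 h, 40.3 and 29.1 at 72 h, then 26.2 and 20.2 at 144 h. DKO levels were 100.3 and 91.6 at 0 h, 50.7 and 29.6 at 24 h, then 70.8 and 49.7 at 72 h. Treated libraries lay below the 0 h libraries in both genotypes. The log2 changes were -1.26 ± 0.31 (adjusted p = 0.0141), -1.09 ± 0.31 (0.0354) and -1.64 ± 0.31 (0.000633) in WT, and -1.28 ± 0.31 (0.00807) at 24 h and -0.68 ± 0.31 (0.226, or 0.0462 with the block) at 72 h in DKO. The 72 h call in WT was lost in each of the 4 leave-outs (-1.32 to -0.87) and the 24 h call in WT in 3 of 4 (-1.32 to -1.11), whereas on plain TPM Lamtor4 fell in all 5 comparisons, by 0.88, 0.66 and 0.63 in WT and by 0.71 and 0.38 in DKO.

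Lamtor3 was 68.3 and 72.1 spike-in normalized TPM in WT at 0 h, 42.3 and 53.9 at 24 h, 65.4 and 49.4 at 72 h, then 37.6 and 39.0 at 144 h, and 81.1 and 71.1, 52.3 and 33.5, and 68.9 and 54.1 in DKO at 0, 24 and 72 h. It fell at 144 h in WT (-0.86 ± 0.29, adjusted p = 0.0197) and at 24 h in DKO (-0.84 ± 0.29, 0.0451), and its plain TPM changes, 0.15 and -0.28, passed at neither. Lamtor1, Lamtor2 and Lamtor5 fell by 1.21, 0.94 and 1.37 at 144 h in WT. The blocked fit also called Lamtor2 (adjusted p = 0.0190) and Lamtor5 (0.0379) lower at 24 h and Lamtor1 (0.0420) and Lamtor5 (0.00945) at 72 h in WT. Of the 5 Ragulator genes, Lamtor4 and Lamtor5 were lower at 144 h on both scales, Lamtor5 by 0.36 on plain TPM.

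Rraga and Rragb encode the A and B Rag GTPases, close paralogues that serve the same position in the Rag dimer. Rraga, on mm10 chromosome 4 at 86575668 to 86577285 and chosen for full description after its values were seen, was 141 and 148 spike-in normalized TPM in WT at 0 h, 74.9 and 91.0 at 24 h, 87.9 and 70.2 at 72 h, then 53.1 and 49.1 at 144 h. It fell by 1.48 ± 0.28 at 144 h in WT (adjusted p = 0.000633) and by 1.13 ± 0.28 at 24 h in DKO (0.00948), and with the block also at 24 h (adjusted p = 0.00824) and 72 h (0.00539) in WT. Rragb, on mm10 chromosome X at 153139981 to 153171943, was 28.0 and 26.2 at 0 h, 24.0 and 25.2 at 24 h, 37.5 and 31.5 at 72 h, then 30.1 and 30.6 at 144 h in WT, and 30.6 and 31.5, 35.8 and 21.1, and 45.3 and 31.9 in DKO at 0, 24 and 72 h. Its 144 h libraries lay above its 0 h libraries, and the change of 0.16 ± 0.30 did not pass (adjusted p = 0.668). On plain TPM Rragb rose by 0.73 at 72 h and by 1.14 ± 0.12 at 144 h in WT (adjusted p = 0.000276), and Rraga fell by 0.44 and 0.46.

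A ratio of 2 genes within a library does not depend on its factor. Rragb over Rraga was 0.198 and 0.177 in WT at 0 h, 0.320 and 0.277 at 24 h, 0.427 and 0.448 at 72 h, then 0.566 and 0.623 at 144 h. In DKO the ratio was 0.177 and 0.202 at 0 h, 0.403 and 0.337 at 24 h, then 0.333 and 0.359 at 72 h. In WT each time lay above the one before without overlap, and in DKO both treated times lay above 0 h but overlapped each other. Of 6 ratios computed, 3 are plotted, chosen after their values were seen, and no test was run on any. Similar sequence may let reads be shared between paralogues, and how such reads were assigned is not given in the sources used here.

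The other 3 ratios moved less evenly. Akt1 over Akt2 was 0.432 and 0.853 in WT at 0 h, 0.627 and 0.567 at 24 h, 0.259 and 0.352 at 72 h, then 0.348 and 0.451 at 144 h, and in DKO 0.771 and 0.438, 0.558 and 0.392, then 0.306 and 0.280, so its 24 h and 144 h values overlapped 0 h. Rhebl1 over Rheb was 0.489 and 0.552 in WT at 0 h, 0.490 and 0.434 at 24 h, 0.731 and 0.568 at 72 h, then 0.837 and 0.605 at 144 h, and in DKO 0.642 and 0.582, 0.597 and 0.711, then 0.732 and 0.717. Rps6kb1 over Rps6kb2 was 2.22 and 2.81 in WT at 0 h, 1.77 and 1.84 at 24 h, 2.53 and 2.35 at 72 h, then 2.39 and 2.83 at 144 h, and in DKO 2.42 and 2.49, 2.51 and 2.09, then 2.98 and 3.46. For both S6 kinase and Rheb ratios, some treated times overlapped 0 h and others did not.

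**Figure D3:**
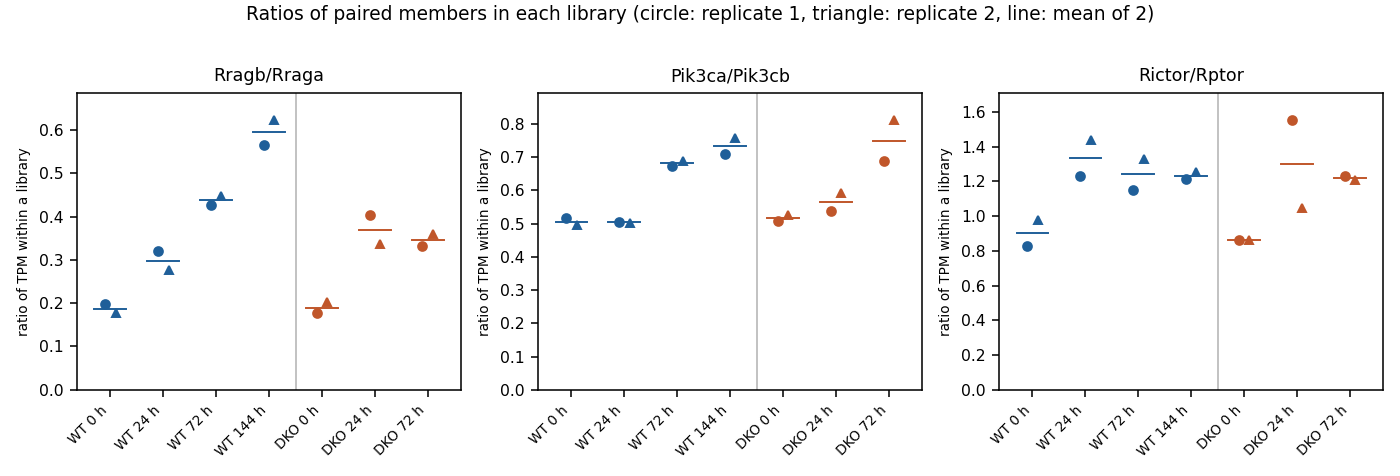
Ratio of TPM within each library for Rragb over Rraga, Pik3ca over Pik3cb and Rictor over Rptor, by group, with 1 point per library and a line at each group mean. Rragb over Rraga climbs from 0.177 and 0.198 to 0.566 and 0.623 across the WT times, and Rictor over Rptor is above 1 in every treated library.

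The TSC complex restrains mTORC1 by acting on Rheb. Tsc2, its catalytic subunit, on mm10 chromosome 17 at 24595816 to 24632630, was 106 and 107 spike-in normalized TPM in WT at 0 h, 95.9 and 117 at 24 h, 109.8 and 97.5 at 72 h, then 73.3 and 67.7 at 144 h. The DKO libraries held 128 and 111 at 0 h, 134 and 87.1 at 24 h, then 145 and 105 at 72 h. Only the 144 h WT libraries lay clear of the 0 h libraries of their genotype, and the change of -0.59 ± 0.28 did not pass without the block (adjusted p = 0.0777) and passed with it (0.0163). On plain TPM Tsc2 rose in all 5 comparisons, by 0.36 ± 0.07, 0.38 ± 0.07 and 0.42 ± 0.07 in WT (adjusted p = 0.00413, 0.00448 and 0.00234) and by 0.42 ± 0.07 and 0.35 ± 0.07 in DKO (0.00237 and 0.00667). Tsc2 overlaps Pkd1 on the opposite strand, whose mean level was 10.6 TPM beside 106 for Tsc2. Rheb, the direct activator of mTORC1, fell at 144 h in WT (-0.81 ± 0.30, adjusted p = 0.0318), as did the third TSC subunit Tbc1d7 (-1.27 ± 0.33, 0.00462), while Tsc1 (-0.81, 0.0651) and the Rheb paralogue Rhebl1 (-0.36, 0.321) did not pass. In the blocked fit Tsc1 was lower at that time too (adjusted p = 0.00613), and Tbc1d7 at 72 h in WT (0.0271) and 24 h in DKO (0.0408). Rhebl1 rose on plain TPM at 72 h (0.50) and 144 h (0.64) in WT and at 72 h (0.45) in DKO.

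In the growth factor arm, 5 of 7 genes were lower at 144 h in WT, with a median of -1.02, where 50.5% of all genes were lower and the all-gene median was -0.83. Sgk1, a kinase activated through mTORC2 and the member with the highest mean level over the 14 libraries (198 spike-in normalized TPM), was 268 and 326 in WT at 0 h, 158 and 169 at 24 h, 227 and 167 at 72 h, then 132 and 119.9 at 144 h. DKO levels were 334 and 267 at 0 h, 154 and 113 at 24 h, then 169.9 and 167 at 72 h. All treated libraries lay below the 0 h libraries of their genotype. Sgk1 fell at 24 h (-0.85 ± 0.26, adjusted p = 0.0436) and 144 h (-1.23 ± 0.26, 0.00141) in WT and at 24 h in DKO (-1.17 ± 0.26, 0.00526), though the WT 24 h call was lost in each leave-out (-0.99 to -0.71). With the replicate block it was lower at 72 h as well, in WT (adjusted p = 0.0428) and in DKO (0.0130). On plain TPM Sgk1 passed only at 24 h in DKO (-0.60).

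Akt1, a central growth factor kinase, was 35.9 and 66.7 spike-in normalized TPM in WT at 0 h, 30.7 and 39.5 at 24 h, 20.0 and 18.5 at 72 h, then 15.6 and 15.4 at 144 h. It was 66.4 and 37.1 at 0 h, 44.002 and 20.5 at 24 h, then 30.0 and 21.4 at 72 h in DKO, with the same 0 h libraries high as for the endoderm markers. The WT changes of -1.30 ± 0.38 at 72 h (adjusted p = 0.0389) and -1.60 ± 0.38 at 144 h (0.00277) passed, but without replicate 2 at 0 h neither did (-0.87 and -1.16), and the 72 h call was also lost without either 72 h replicate (-1.36 and -1.25) and without the filter on low values. In DKO Akt1 was lower only in the blocked fit, at 24 h (adjusted p = 0.0285) and 72 h (0.0127). Akt2 and Pdpk1 (PDK1) fell by 1.02 and 1.11 at 144 h in WT and their plain TPM changes were -0.01 and -0.10. Among the PI3K subunits, Pik3cb fell by 1.02 ± 0.30 (adjusted p = 0.00969), and Pik3ca (-0.49) and the regulatory subunit Pik3r1 (-0.30) did not pass. Pik3ca over Pik3cb within a library was 0.516 and 0.495 in WT at 0 h, 0.505 and 0.503 at 24 h, 0.674 and 0.689 at 72 h, then 0.709 and 0.757 at 144 h. The DKO ratios were 0.509 and 0.527, 0.537 and 0.591, and 0.688 and 0.811 at 0, 24 and 72 h. In both genotypes the 72 h ratios lay above the 0 h and 24 h ratios.

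The transcript of the kinase that the drug inhibits passed no test on the spike-in scale and rose on plain TPM. Mtor, on mm10 chromosome 4 at 148448611 to 148557683, was 59.9 and 59.3 spike-in normalized TPM in WT at 0 h, 62.9 and 71.9 at 24 h, 75.0 and 62.5 at 72 h, then 49.1 and 42.3 at 144 h. The DKO libraries held 85.3 and 72.3 at 0 h, 93.1 and 58.8 at 24 h, then 119.7 and 81.0 at 72 h. The WT libraries at 24 and 72 h lay above 0 h and those at 144 h below it, and the DKO times overlapped. No change passed on this scale, with log2 changes in WT of 0.17, 0.20 and -0.38 (SE 0.29 each, adjusted p = 0.743, 0.714 and 0.272). On plain TPM Mtor rose from 28.4 and 28.1 at 0 h to 43.9 and 38.8, 45.4 and 41.9, and 45.9 and 42.3 in WT, a log2 change of 0.53 ± 0.09, 0.61 ± 0.09 and 0.62 ± 0.09 (adjusted p = 0.00132, 0.00103 and 0.000808), and by 0.47 and 0.62 at 24 and 72 h in DKO.

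Raptor and Rictor define the 2 complexes. Rptor, on mm10 chromosome 11 at 119602905 to 119899576, was 59.6 and 60.9 spike-in normalized TPM in WT at 0 h, 41.3 and 50.7 at 24 h, 60.5 and 50.3 at 72 h, then 36.5 and 36.0 at 144 h, and 90.7 and 72.5, 68.4 and 46.6, and 97.8 and 69.5 in DKO at 0, 24 and 72 h. Its change at 144 h was -0.72 ± 0.29 (adjusted p = 0.0425), a call lost in each of the 4 leave-outs (-0.73 to -0.70) and without the filter on low values, and 0.29 ± 0.09 (0.0330) on plain TPM. Rictor, on mm10 chromosome 15 at 6708379 to 6800401, was 49.2 and 59.4 in WT at 0 h, 50.7 and 72.8 at 24 h, 69.7 and 66.9 at 72 h, then 44.2 and 45.2 at 144 h, and 78.1 and 62.3, 106 and 48.9, and 120.1 and 84.0 in DKO. Rictor passed no test on the spike-in scale and rose in all 5 plain TPM comparisons, by 0.52, 0.74 and 0.73 in WT and by 0.60 and 0.81 in DKO. Rictor over Rptor was 0.826 and 0.976 in WT at 0 h and 1.23 and 1.44, 1.15 and 1.33, and 1.21 and 1.25 at 24, 72 and 144 h. It was 0.861 and 0.860 in DKO at 0 h, 1.55 and 1.05 at 24 h, then 1.23 and 1.21 at 72 h. All 10 treated libraries lay above the 4 untreated ones.

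**Figure D4:**
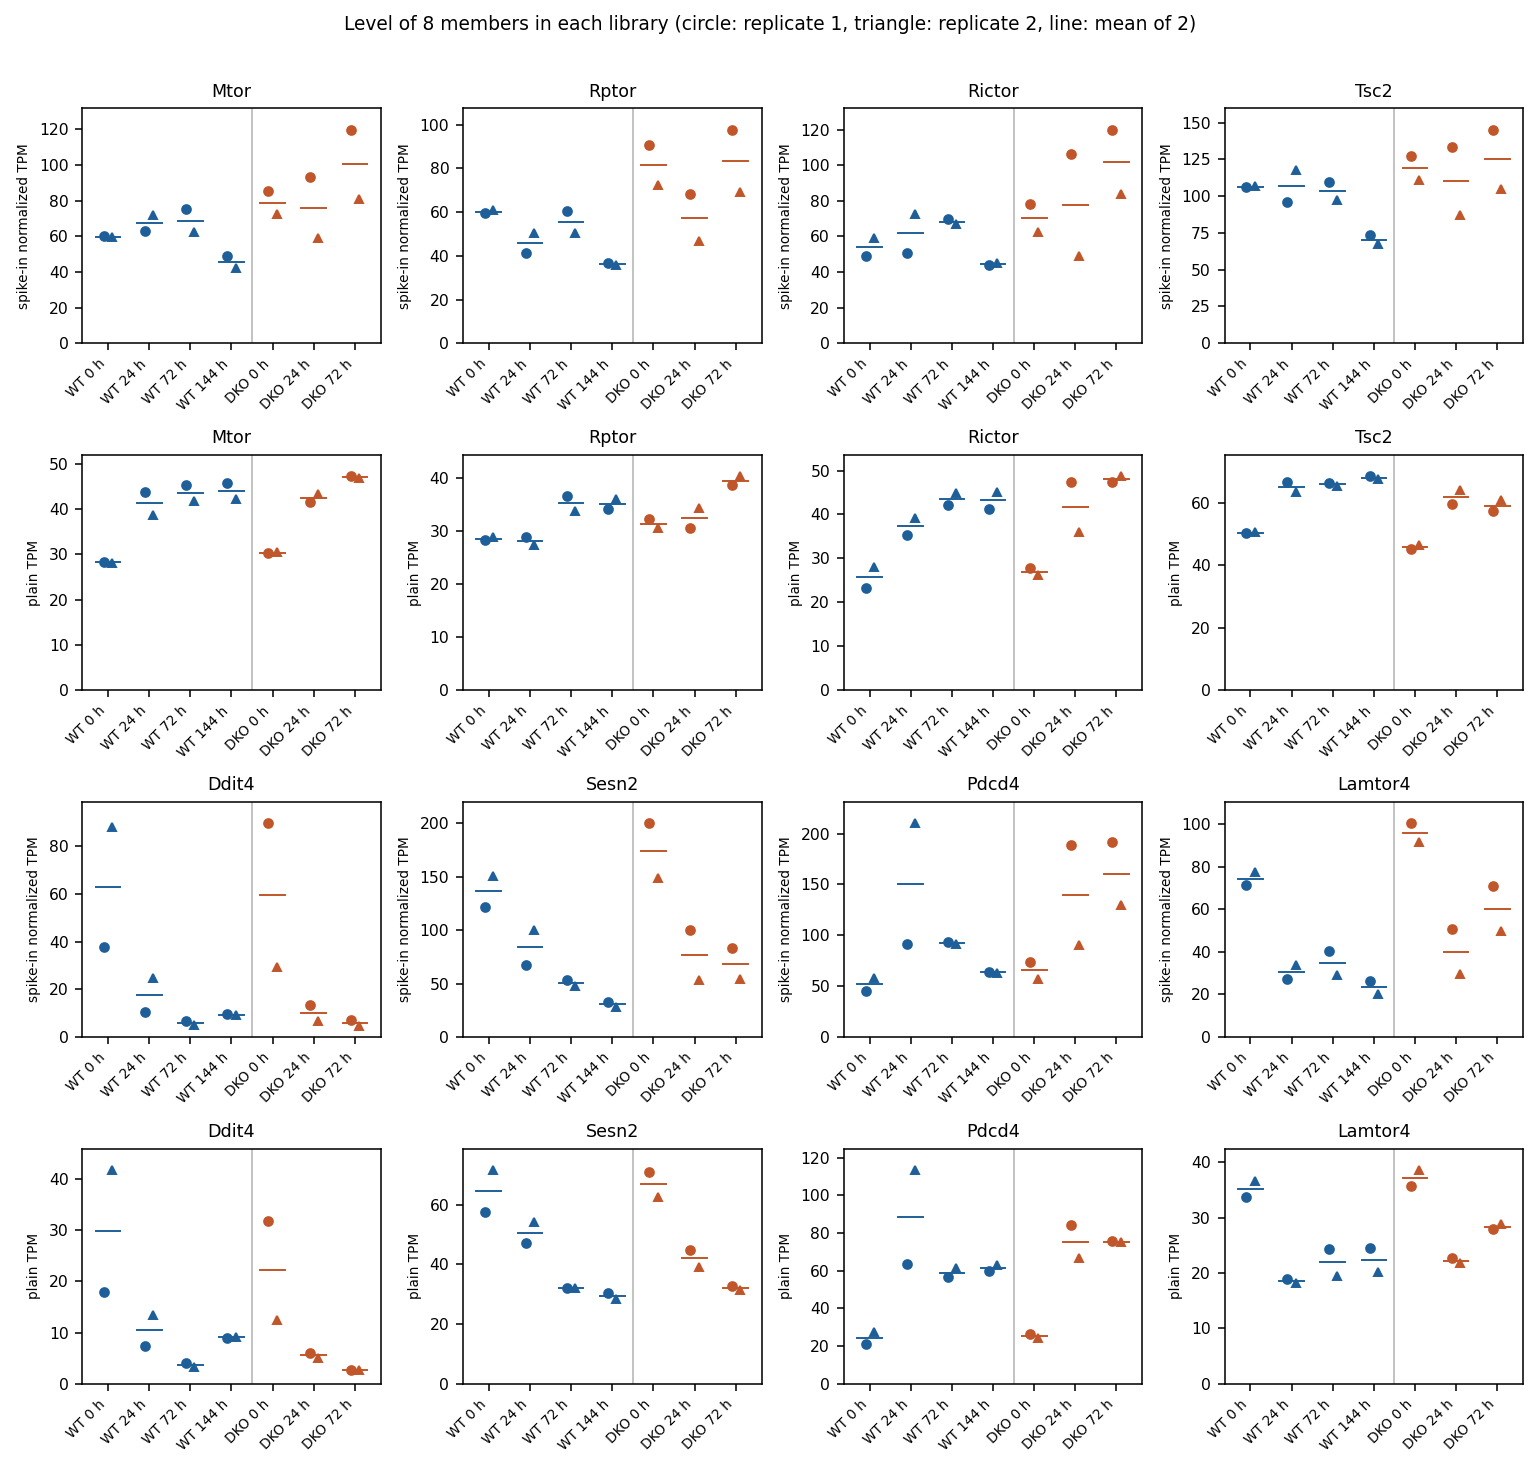
Level per library (linear axes from 0) of Mtor, Rptor, Rictor, Tsc2, Ddit4, Sesn2, Pdcd4 and Lamtor4 by group, on spike-in normalized and plain TPM, with 1 point per library and a line at each group mean. Plain Mtor is near 28 TPM in untreated WT libraries and 38.8 to 45.9 in treated ones, while Ddit4 drops on both scales.

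Deptor, an inhibitor that binds mTOR in both complexes, was 33.1 and 30.2 spike-in normalized TPM in WT at 0 h, 39.6 and 44.1 at 24 h, 44.1 and 40.9 at 72 h, then 29.0 and 29.6 at 144 h, and 41.1 and 44.1, 52.6 and 43.2, and 68.9 and 48.8 in DKO at 0, 24 and 72 h. Its changes did not pass on that scale (0.39, 0.41 and -0.11 in WT), and on plain TPM it rose by 0.74, 0.81 and 0.88 ± 0.15 in WT and by 0.70 and 0.72 in DKO. Akt1s1 (PRAS40), an mTORC1 inhibitor that AKT phosphorylates, was 47.0 and 44.9 in WT at 0 h, 46.8 and 78.8 at 24 h, 43.5 and 44.7 at 72 h, then 37.8 and 28.9 at 144 h, and 56.2 and 53.5, 55.1 and 40.0, and 62.8 and 64.4 in DKO. Its 24 h WT replicates differed more than the groups did, and its change of 0.40 ± 0.29 did not pass (adjusted p = 0.405). On plain TPM Akt1s1 was higher at that time (0.75). Akt1s1 overlaps Tbc1d17 on the opposite strand (22.7 TPM beside 50.3). Among the other subunits, Mlst8 (-1.24), the mTORC2 subunits Mapkap1 (-0.78) and Prr5 (-1.17) fell at 144 h in WT, and the assembly factors Telo2 (-0.72, adjusted p = 0.0840, or 0.0119 with the block) and Tti1 (-0.51, 0.171, or 0.0458) passed only with the block. Mlst8 at 72 h in WT (0.0239) and Prr5 at 24 h in DKO (0.0160) were also lower only in the blocked fit. The 144 h call of Mlst8 held in 2 of 4 leave-outs (-1.33 to -1.15). The 10 genes of the complexes had the highest median of the 8 role groups at 144 h in WT, -0.61 on the spike-in scale and 0.39 on plain TPM, where 5 of the 10 were higher and 0 lower, against 15.6% and 11.7% of all genes.

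Downstream of mTORC1, Pdcd4 was the 1 member that rose on the spike-in scale. Pdcd4, on mm10 chromosome 19 at 53892231 to 53929861, was 44.9 and 58.4 TPM in WT at 0 h, 91.5 and 210.0 at 24 h, 93.5 and 91.1 at 72 h, then 64.3 and 63.0 at 144 h. In DKO it was 73.8 and 57.4 at 0 h, 188 and 90.3 at 24 h, then 191 and 129.6 at 72 h. Every treated library lay above every 0 h library of its genotype. The log2 change was 1.42 ± 0.37 at 24 h (adjusted p = 0.0182), 0.84 ± 0.37 at 72 h (0.154) and 0.31 ± 0.37 at 144 h (0.483) in WT, and 0.99 ± 0.37 (0.0621) and 1.26 ± 0.37 (0.0614) at 24 and 72 h in DKO. With the replicate block the WT 72 h, DKO 24 h and DKO 72 h changes passed (adjusted p = 0.0221, 0.0056 and 0.00295). The 24 h WT call was lost without replicate 1 at 0 h (1.24), replicate 2 at 0 h (1.61) or replicate 2 at 24 h (0.83), and without the filter on low values (adjusted p = 0.126). On plain TPM Pdcd4 rose in all 5 comparisons, by 1.77, 1.25 and 1.31 ± 0.22 in WT and by 1.54 at both times in DKO. The library with the highest Pdcd4, the second WT library at 24 h, also had the highest endoderm marker sum, and the part of those markers in its level was not tested. The S6 kinase genes Rps6kb1 and Rps6kb2 fell at 144 h in WT by 0.77 ± 0.31 (adjusted p = 0.0447) and 0.81 ± 0.32 (0.0439), with plain TPM changes of 0.23 and 0.17 that did not pass. Rps6kb1 was also lower at 24 h in DKO with the block (adjusted p = 0.0444).

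DKO and WT were compared at matched times, with the DKO and treated groups drawn from the same libraries as above. None of the 44 genes differed on the spike-in scale at 0, 24 or 72 h, where 0.0439%, 0.0439% and 0.329% of all genes did (limma), and 2, 0 and 7 members had an unadjusted p under 0.05, against 8.35%, 4.14% and 23% of all genes. Spike-in levels were higher in both DKO libraries than in both WT libraries for 32, 2 and 30 genes at the 3 times, against 52.9%, 11.1% and 62.6% of all tested genes, and lower for 0, 1 and 0, against 4.39%, 5.44% and 2.38%. The member medians of 0.33, 0.05 and 0.48 stood beside all-gene medians of 0.29, 0.10 and 0.49. The 44 genes thus stood close to the all-gene median at each time. On plain TPM the libraries separated upward for 11, 7 and 18 genes, against 24.4%, 21.6% and 39.3% of all tested genes, and downward for 10, 14 and 7, against 16.6%, 18.8% and 15.1%.

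At 72 h the highest DKO over WT values were those of Sesn1 (1.12 ± 0.32, adjusted p = 0.127), Nprl3 (0.88 ± 0.36, 0.187) and Depdc5 (0.86 ± 0.33, 0.180), and the lowest those of Sgk1 (-0.21 ± 0.26, 0.563), Ddit4 (-0.01 ± 0.49, 0.995) and Lamtor3 (0.10 ± 0.29, 0.802). Sesn1 was 19.8 and 17.4 TPM in WT and 47.4 and 36.5 in DKO. On plain TPM Sesn1 was the 1 member that differed, with 12.0 and 11.7 TPM in WT and 18.7 and 21.1 in DKO (0.70 ± 0.13, adjusted p = 0.0229), against 4.01% of all genes. At 0 and 24 h 0 members differed on plain TPM, against 0.598% and 1.37%, with 3 and 10 at an unadjusted p under 0.05, which 13.9% and 14.8% of all genes had. Sgk1 at 72 h was 137 and 112 plain TPM in WT and 67.1 and 96.8 in DKO, a difference of -0.62 that did not pass (adjusted p = 0.0820).

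Whether the response to mTORi differed between genotypes was tested as the difference of the changes from 0 h. It passed for 0 members at 24 h, against 0.00548% of all genes, and for 0 members at 72 h, against 0% of all genes, and 0 members had an unadjusted p under 0.05 at either time, against 1.22% and 0.993%. On plain TPM 0 members passed at both times, against 0% and 0% of all genes, with 0 and 1 under an unadjusted p of 0.05, against 3.87% and 3.71%. The widest differences were -0.61 ± 0.41 for Akt1s1 at 24 h and 0.61 for Sesn1 at 72 h. Neither passed.

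**Figure D5:**
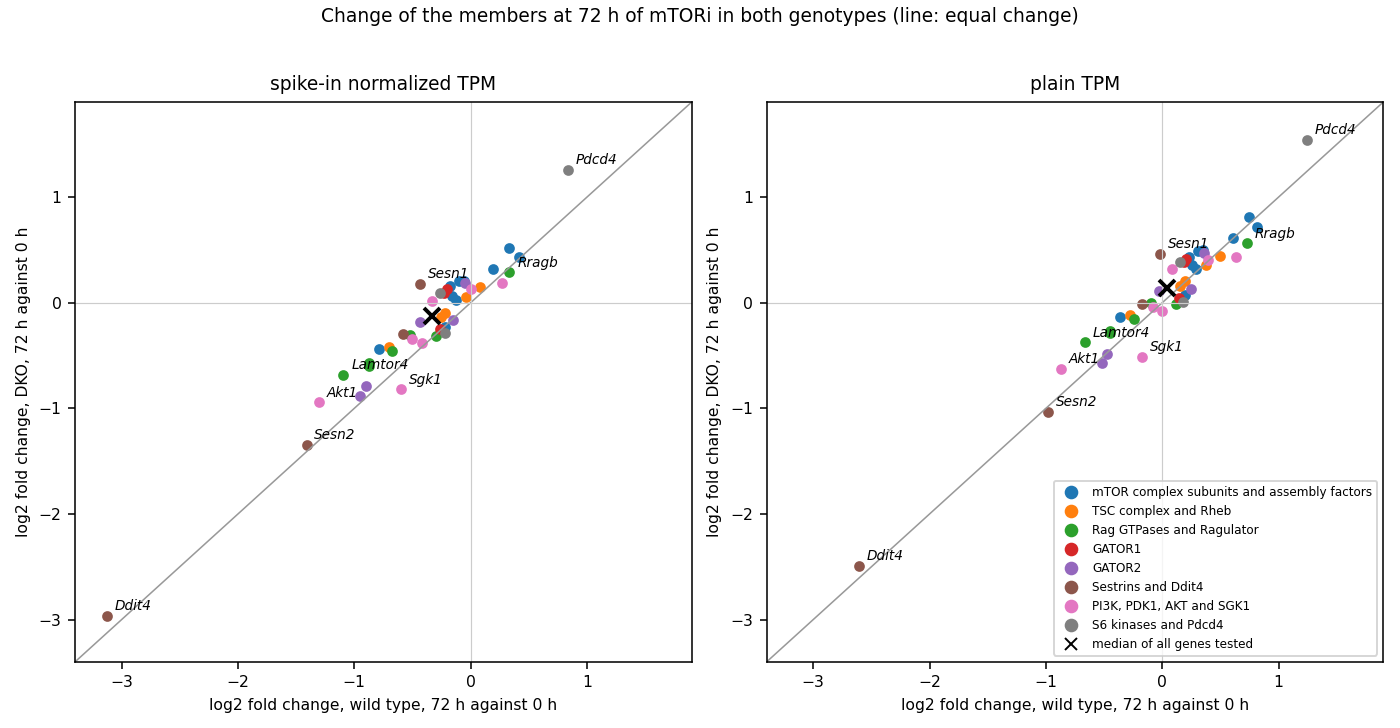
Log2 change from 0 to 72 h in WT (x axis) against DKO (y axis) for each of the 44 genes, on spike-in normalized TPM (left) and plain TPM (right), with a cross at the all-gene median. Ddit4 lies farthest down in both genotypes (-3.12 in WT and -2.97 in DKO on the left) and Pdcd4 farthest up (0.84 and 1.26).

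Beyond the 44 genes, 41 of 42 other pathway genes on a list of further regulators and targets were tested. On the spike-in scale 1 was higher and 5 lower at 24 h in WT, 1 and 4 at 72 h, then 1 and 16 at 144 h, and in DKO 1 and 7 at 24 h, then 0 and 3 at 72 h. The share of all genes lower in these comparisons was 8.73%, 7.6% and 50.5% in WT and 18.7% and 2.95% in DKO, and the share higher 1.25%, 0.697% and 0.461%, then 0.505% and 0.713%. The blocked fit gave 5 and 9, 4 and 12, and 2 and 28 in WT, and 1 and 13, then 3 and 5 in DKO. There the shares of all genes lower were 25.7%, 25.4% and 66.3%, then 38.1% and 13.2%. Those higher were 4.48%, 2.85% and 1.05%, then 1.95% and 5.34%. Castor1, an arginine sensor, Eif4ebp1, an mTORC1 substrate that represses translation, and Grb10, an adaptor that mTORC1 stabilizes and that dampens insulin signalling, were lower in all 5. The share of all genes lower in all 5 is not given here. At 144 h in WT the lowest was Grb10, with 103 and 86.9 TPM at 0 h and 22.6 and 14.4 at 144 h (-2.33 ± 0.35, adjusted p = 0.000138). The highest was Irs1, an insulin receptor substrate near the lower limit of the filter, with 0.492 and 0.771 TPM at 0 h and 2.37 and 2.49 at 144 h (1.08 ± 0.37, 0.0217). On plain TPM the counts of higher and lower genes were 17 and 8, 11 and 6, and 16 and 5 in WT and 6 and 7, and 11 and 4 in DKO, beside the plain TPM shares of all genes given above, and the insulin and IGF receptors Insr and Igf1r were among the higher at every WT time.

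Between genotypes, Grb10 was lower in DKO on plain TPM at 0, 24 and 72 h (-1.73, -1.72 and -1.51) and passed at each time. On the spike-in scale its differences of -1.49, -1.71 and -1.20 did not pass (adjusted p = 0.214, 0.102 and 0.133).

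TPM divides by transcript length, so the levels of members can be set side by side. In WT at 0 h, Sgk1 (297 ± 41.1 spike-in normalized TPM, SD, n = 2) and Sec13 (260.3 ± 14.3) differed by less than the spread of Sgk1, and both lay above Seh1l (172 ± 25.0), Lamtor1 (158 ± 0.119), Rraga (145 ± 4.57), Sesn2 (136 ± 20.8), Lamtor2 (127 ± 4.78) and Rheb (116 ± 7.78). Seh1l and Lamtor1, and Rraga, Sesn2 and Lamtor2, differed from each other by less than the spread of Seh1l or Sesn2. A mean over the 14 libraries pools groups that differ, and Pdcd4 averaged 103 over them but 51.6 ± 9.53 in WT at 0 h. Mtor (59.6 ± 0.425), Rptor (60.2 ± 0.884) and Rictor (54.3 ± 7.16) were close together in untreated WT cells, with differences within the spread of Rictor. Other overlaps that the counting may not separate are those of Rps6kb1 with Rnft1 (16.7 TPM beside 62.3), Pdcd4 with Bbip1 (10.7 beside 103), Mapkap1 with Gm13408 (17.5 beside 54.9), Sesn2 with Gm12981 (6.24 beside 88.8) and Pik3ca with Gm37123 (6.25 beside 21.7), the last 3 on the same strand.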

How the data were processed

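Per the labels and the study's methods, total RNA from sorted cells (a fixed number per sample) was depleted of ribosomal RNA with ERCC spike-in added, and reads were processed by the authors with cutadapt 2.4, STAR 2.7.3a and StringTie 2.0 (submitters' processing notes; mm10, GENCODE annotation). The deposited values are TPM per gene for each of 14 libraries, each summing to 1000000, with 0 ERCC entries, so read depth is unknown and no counting interval is given. Spike-in normalized TPM is the deposited TPM times 1 factor per library, the median ratio of the study's own spike-in normalized values for its first listed genes to the deposited TPM over genes of at least 1 TPM. That these factors hold for the remaining genes is an assumption.

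Genes averaging 1 TPM or more over the libraries were tested on log2(TPM + 1), which understates changes of low genes, with limma 3.58.1 in R 4.3.3 (trend, 1 fit of 7 groups of 2) and Benjamini-Hochberg adjustment over all 18232 genes; 0.05 was the threshold. The study itself ran DESeq2 on its StringTie output, which was not repeated here. Alternatives were plain TPM, a pseudocount of 0.1, no filter, a replicate block and leaving out each library. Python 3.11.15, pandas 2.3.3, numpy 2.4.6 and matplotlib 3.10.9 did the rest, and the fit was tested on simulated data.

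The replicate numbers pair libraries within a genotype because the time points of a replicate were processed in parallel. Deviations of same-numbered libraries correlated at 0.222 to 0.341 in DKO and at 0.0622 to 0.398 in WT, and at -0.431, -0.501 and -0.29 between genotypes at 0, 24 and 72 h, so the block was not used across genotypes. The study's reporting summary names biological replicates from repeated experiments, the labels do not describe separate cultures, and p-values measure the spread between these libraries.

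The 44 genes, the role lists and the tests were chosen with earlier results of these data known. Values are given per library for Mtor, Rptor, Rictor, Tsc2, Sesn2 and Ddit4 and for the 3 highest and 3 lowest members at 24 h and 144 h in WT and in DKO against WT at 72 h. Rraga, Sec13, Akt1, the ratios and the promoters printed were chosen after their values were seen. Protein sequences were not used here. A result on a further pathway gene is not reported here.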

Additional observations from a re-analysis of the deposited data

Results flagged for a closer look

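Akt1s1, the gene of the mTORC1 inhibitor PRAS40, moved in opposite directions in the 2 genotypes at 72 h on the spike-in scale. Both WT libraries at 72 h (43.5 and 44.7 TPM) lay below both at 0 h (47.0 and 44.9), and both DKO libraries (62.8 and 64.4) lay above theirs (56.2 and 53.5). The log2 changes were -0.06 in WT and 0.21 in DKO, and neither passed. The test of the difference itself gave 0.27 ± 0.41 with an adjusted p of 0.9996 (limma), so the genotypes are not shown to differ. On plain TPM both changes were upward, 0.35 in WT and 0.50 in DKO.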

How the results depend on the processing

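On plain TPM these directions were reversed, counting a sign change where a gene passed on either scale: at 24 h in WT Pik3cb (0.32), Tsc2 (0.36) and Mapkap1 (0.35); at 72 h in WT Wdr59 (0.36), Tsc2 (0.38), Rptor (0.29) and Tti1 (0.31); at 24 h in DKO Tsc2 (0.42), Mapkap1 (0.32) and Mtor (0.47). At 144 h in WT they were Depdc5 (0.45), Nprl2 (0.10), Mios (0.10), Wdr59 (0.37), Pik3ca (0.47), Pik3r1 (0.61), Lamtor2 (0.077), Lamtor3 (0.15), Rps6kb1 (0.23), Rps6kb2 (0.17), Rheb (0.20), Rhebl1 (0.64), Tsc2 (0.42), Deptor (0.88), Mapkap1 (0.22), Mtor (0.62), Rictor (0.73), Rptor (0.29) and Tti1 (0.48). The plain scale moves the all-gene median at 144 h in WT from -0.83 to 0.055 by construction.

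Counts of higher and lower members in WT at 24, 72 and 144 h and DKO at 24 and 72 h became 10 and 5, 12 and 8, 13 and 6, 7 and 10, and 17 and 5 on plain TPM, where 1 member differed between genotypes at 72 h. The replicate block gave 1 and 10, 1 and 12, 0 and 35, 1 and 17, and 1 and 7, where 25.7%, 25.4%, 66.3%, 38.1% and 13.2% of all genes were lower. Without the filter, which tests more genes, lower counts were 0, 1, 18, 4 and 0 and higher counts 0, and 3 of the 5 calls of Ddit4 and the call of Pdcd4 ended. Leaving out 1 library gave 0 to 2, 1 to 3, 12 to 15, 0 to 26 and 0 to 2 lower members, and 0 to 1 higher members at 24 h in each genotype and 0 otherwise. Over single members, leaving out a library left the call, or its absence, unchanged in 937 results, ended 103 calls, added 16 and reversed 0 called values, while changes that passed no test could change sign. A pseudocount of 0.1 changed no call among 264, and the block ended 0 and added 37. Each group held 2 libraries, read depth is unknown, and factors differed up to 1.65-fold between replicates.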
